A study of Mus musculus with 12 samples.

Results

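The 80 transcripts described here had higher levels after gonadotropin stimulation in both kinds of granulosa cell of the mouse ovarian follicle. They were chosen by measured values. A transcript had to have a highest group mean of at least 8 on the deposited log2 scale, and its stimulated group mean had to exceed the unprimed one by at least 1 (2-fold) in cumulus and also in mural cells. They make up 0.292% of the 27365 distinct sets of values in the series. Transcripts with identical values on all arrays cannot be told apart and were counted once, so the 80 stand for 115 Ensembl transcript identifiers. The files do not pair these identifiers with gene names, so no gene, function or sequence is given for any of them.

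Mural granulosa cells form the inner lining of the follicle wall, and cumulus cells enclose the oocyte. Equine chorionic gonadotropin (eCG, named PMSG in the sample titles) acts mainly like follicle-stimulating hormone. Its receptor on granulosa cells raises cyclic AMP, and the cells then proliferate, make oestrogen and prepare to respond to luteinizing hormone.

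All mice were 22-day-old B6SJLF1 animals. Stimulated mice received 5 IU of eCG 44 hours before collection, and unprimed mice were not given the hormone. Each of 4 groups held 3 arrays: unprimed cumulus, stimulated cumulus, unprimed mural and stimulated mural cells. Cumulus cells came from 200 complexes per sample and mural cells as a similar mass of clumps, from pools of 5 mice that the labels call biological replicates. In such bulk samples a change in RNA per cell and a change in the kinds of cell collected cannot be told apart, and without gene names the labelled cell types were not checked against markers.

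One group was less even than the others. Among unprimed mural arrays the median SD of the 80 transcripts was 0.44 on the log2 scale, against 0.26 in unprimed cumulus, 0.19 in stimulated cumulus and 0.22 in stimulated mural cells. Over all 16809 sets tested these medians were 0.15, 0.10, 0.15 and 0.13. The replicate numbered 2 was the highest unprimed mural array for most of the 80, as described below. Several counts that move without it are given both ways. Other counts were not all repeated without it and may also move. Medians of whole arrays differed little, at 7.296 to 7.376.

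The values that chose the 80 are a description and were not tested. The log2 difference, stimulated minus unprimed, ran from 1.00 to 3.02 in cumulus cells with a median of 1.37 (2.59-fold). In mural cells it ran from 1.01 to 3.79 with a median of 1.34 (2.53-fold). The rule took 40.8% of the 196 distinct sets that met its level and the cumulus limit, and 32.0% of the 250 that met its level and the mural limit. At the limit of 1, the last 2 transcripts inside had smaller differences of 1.004 and 1.005, and the first 2 outside had 0.997 and 0.991, so the boundary cuts through a continuous range.

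**Figure D1:**
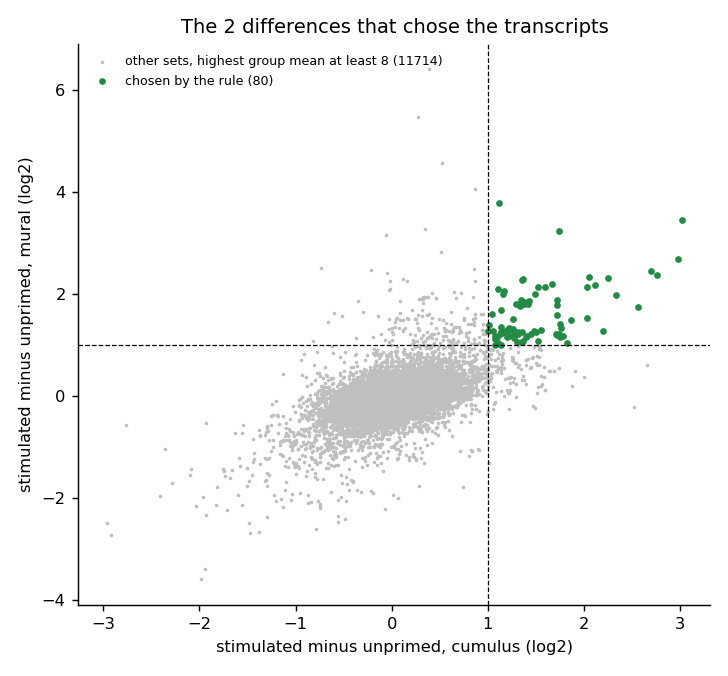
Log2 difference, stimulated minus unprimed, in cumulus cells (x axis) and mural cells (y axis) for each distinct set of values with a highest group mean of at least 8. Green points are the 80 transcripts chosen by the rule, grey points the other sets, and dashed lines the limit of 1; the green points run from just above the limit to 3.02 in cumulus and 3.79 in mural cells.

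Most of the 80 lay near the limit. The smaller of the 2 differences was under 1.2 in 34 transcripts, from 1.2 to 1.5 in 28, from 1.5 to 2 in 10 and at least 2 in 8. Those 8, at least 4-fold higher in both cell types, had stimulated levels of 9.53 to 11.37 in cumulus and 9.74 to 13.37 in mural cells. Their folds were 4.11 to 8.10 in cumulus and 4.38 to 10.96 in mural cells.

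The transcripts ranked nearer the top of the stimulated arrays than of the unprimed ones. This follows from the rule, which required higher stimulated means, so nothing is read from it. Their median rank among distinct sets was at the 59.6th percentile in unprimed and the 80.3rd in stimulated cumulus cells, and at the 68.8th and 86.9th in mural cells. Stimulated group means spanned 6.87 to 13.19 in cumulus and 6.77 to 13.74 in mural cells. All 80 passed the filter on low values (above the array's 40th percentile, 6.66 to 6.73, on at least 3 arrays), and 60 lay above that level on all 12 arrays. For 2 transcripts no unprimed array reached it, so they passed through their stimulated arrays alone and the size of their differences is not exact. Counting these 2, 6 transcripts had all arrays of an unprimed group below it (5 in cumulus and 3 in mural cells). Differences measured from those groups are not exact either.

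The highest of the 4 group means was that of stimulated mural cells in 53 transcripts and that of stimulated cumulus cells in 27. The lowest was unprimed cumulus in 49 and unprimed mural in 31, which became 36 and 44 without unprimed mural replicate 2. In 14 transcripts the unprimed mural mean was above the stimulated cumulus mean, and in 5 without that array. The 3 unprimed mural arrays lay above the 3 stimulated cumulus arrays in 3 transcripts. An unprimed cumulus mean above the stimulated mural mean was found in 3. Shares over all sets tested are not given for these counts of unprimed above stimulated levels, so nothing is read from them.

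**Figure D2:**
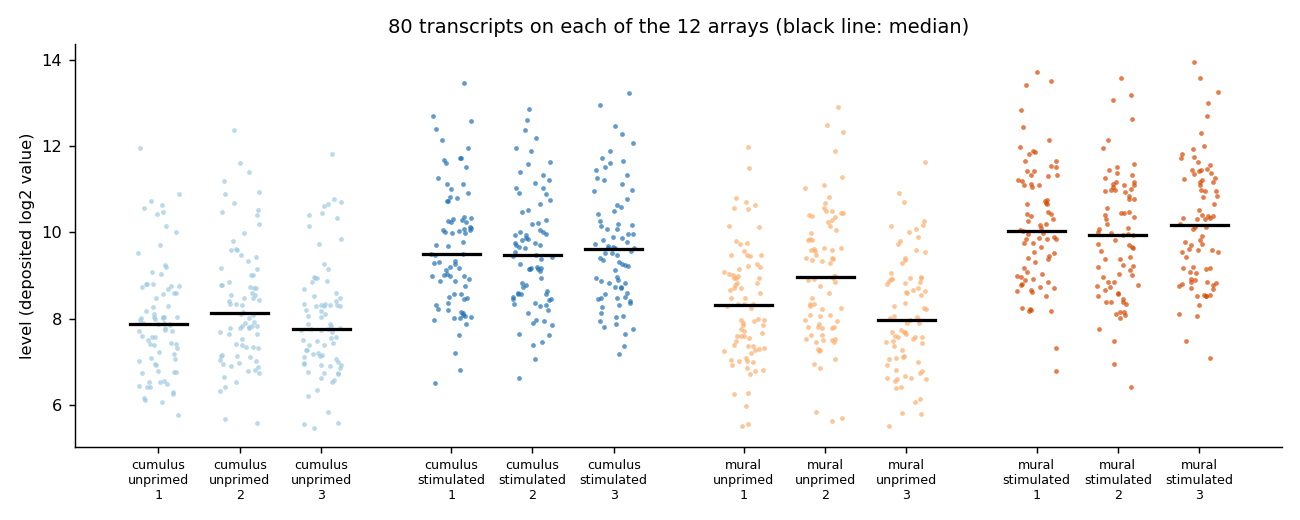
Deposited log2 level (y axis) of the 80 transcripts on each of the 12 arrays (x axis, by group and replicate number); points are transcripts and black lines their median. The medians lay at 7.77 to 8.13 in unprimed cumulus, 9.46 to 9.60 in stimulated cumulus, 7.97 to 8.96 in unprimed mural and 9.94 to 10.16 in stimulated mural arrays, with unprimed mural replicate 2 the highest unprimed array.

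In cumulus cells the 3 stimulated arrays lay above the 3 unprimed arrays in 80 of 80 transcripts, where the background over all sets tested was 21.3%. In mural cells this held in 79 of 80, against a background of 12.6%. Since the rule used these arrays, nothing is read from the counts. The exception, ENSMUST00000141156, had unprimed mural levels of 9.76, 11.29 and 10.02 and stimulated levels of 11.41, 11.16 and 11.996. Its groups overlapped because unprimed replicate 2 stood above stimulated replicate 2.

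The largest joint difference was that of ENSMUST00000099575. Its log2 levels on replicates 1 to 3 were 8.04, 8.74 and 8.28 in unprimed and 11.27, 11.13 and 11.72 in stimulated cumulus cells. In mural cells they were 8.98, 10.15 and 8.92 before and 12.82, 12.62 and 12.98 after stimulation. The groups were far apart in both cell types, by 3.02 in cumulus (8.10-fold) and 3.45 in mural cells (10.96-fold). Within each stage the mural arrays lay above the cumulus arrays without overlap.

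ENSMUST00000038197, with values identical to those of 1 other identifier, came next, with differences of 2.98 in cumulus and 2.68 in mural cells. Its levels were 6.53, 7.79 and 7.20 in unprimed and 10.12, 10.18 and 10.16 in stimulated cumulus cells. The mural levels were 7.03, 8.25 and 7.08 and then 10.10, 9.94 and 10.37. The spread was wide before stimulation (SD 0.63 in cumulus and 0.69 in mural cells) and narrow after it (0.03 and 0.22). Both stimulated groups ended at about the same level, with means of 10.15 and 10.14.

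**Figure D3:**
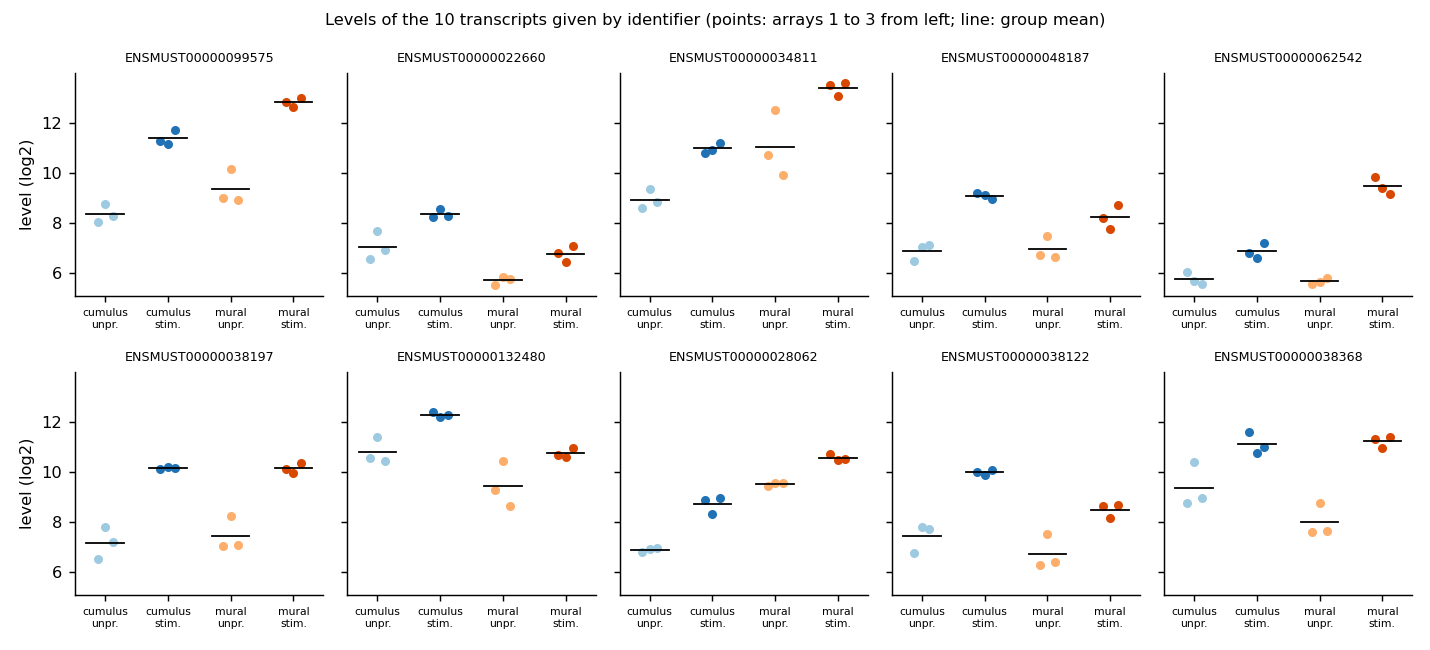
Deposited log2 levels (y axis) of the 10 transcripts named from the planned rule in the 4 groups (x axis); points are replicates 1 to 3 from left to right and lines are group means. ENSMUST00000034811 spans 9.90 to 12.49 in unprimed mural cells, whereas ENSMUST00000028062 spans 9.45 to 9.57 there.

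Both stimulation differences were used by the rule, so the gap between them was not tested. The 2 differences lay within 0.5 of each other in 57 of 80. Mural cells had the larger difference in 43 and cumulus cells in 37. The mural difference was larger by 0.5 or more in 15 transcripts and the cumulus difference in 8. Without unprimed mural replicate 2 the gap was within 0.5 in 51, the mural difference was larger in 61 and the cumulus difference in 19, and gaps of 0.5 or more numbered 26 on the mural and 3 on the cumulus side. Over the 80 transcripts the differences correlated with r = 0.47 (Spearman 0.38), a description of points that share arrays and a lower limit set by the rule.

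The gap was widest in ENSMUST00000062542, which shared its values with 1 other transcript. Its levels were 6.06, 5.66 and 5.55 in unprimed and 6.81, 6.61 and 7.18 in stimulated cumulus cells. In mural cells they were 5.57, 5.62 and 5.82 and then 9.84, 9.38 and 9.16. Unprimed levels were below the filter level in both cell types and the stimulated cumulus level was close to it, so only stimulated mural cells gave a clear signal and the differences of 1.11 and 3.79 are not exact sizes.

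ENSMUST00000038368, also shared with 1 other transcript, followed on the mural side. Its levels were 8.77, 10.41 and 8.94 in unprimed and 11.60, 10.74 and 10.98 in stimulated cumulus cells. Mural arrays read 7.60, 8.76 and 7.64 and then 11.31, 10.97 and 11.41. The unprimed mean was 1.37 higher in cumulus than in mural cells (log2), and after stimulation the means were 11.11 and 11.23, so differences of 1.74 and 3.23 brought the cell types to similar levels.

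On the cumulus side the largest gap was that of ENSMUST00000048187. Its levels were 6.48, 7.04 and 7.10 in unprimed and 9.18, 9.10 and 8.95 in stimulated cumulus cells. Mural levels were 6.73, 7.50 and 6.63 before and 8.18, 7.77 and 8.72 after stimulation. Both cell types started from means of 6.87 and 6.95, near the filter level, and the stimulated cumulus arrays stood above every stimulated mural array.

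ENSMUST00000038122, which shared its values with 2 other transcripts, had differences of 2.56 in cumulus and 1.75 in mural cells. Its levels were 6.76, 7.78 and 7.73 in unprimed and 9.99, 9.87 and 10.08 in stimulated cumulus cells. The mural arrays read 6.28, 7.52 and 6.41 and then 8.63, 8.15 and 8.69. Unprimed groups of the 2 cell types overlapped, and the stimulated groups did not.

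Whether the 80 transcripts also differed between the cell types was asked with a measure the differences above do not enter, the cumulus minus mural difference averaged over both stages. This measure comes from the same arrays, so it is not wholly free of the rule's choice. Of the 80, 34 (42.5%) were called higher in mural and 11 (13.8%) higher in cumulus cells, and 35 were not called. Those called include the 2 transcripts with no unprimed array above the filter level, at -1.25 and 0.71. Their calls rest mainly on stimulated arrays that the rule also used, and the sizes are not exact. Over all sets tested, 21.1% were called higher in mural and 28.0% higher in cumulus cells. Among the 11794 sets with a highest group mean of at least 8, the level used by the rule, these shares were 22.4% and 32.7%. The median of the difference was -0.26 over the 80 and 0.04 over all sets tested. It turned to 0.02 over the 80 without unprimed mural replicate 2, where 34 were called higher in mural cells (background 20.7%) and 20 higher in cumulus cells (background 28.2%).

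Large differences were mostly on the mural side. A called difference of at least 1 in favour of mural cells was found in 24 of 80 transcripts (30.0%, background 2.52%), and one in favour of cumulus cells in 4 (5.00%, background 1.03%). The 24 include ENSMUST00000062542, which had no unprimed array above the filter level. Its unprimed cumulus minus mural difference was 0.09, so its call rests on stimulated arrays. Another of the 24 had all unprimed cumulus arrays below that level. Among the 4, ENSMUST00000022660 had all unprimed mural arrays below it. These sizes are not exact. Mural arrays all lay above cumulus arrays at both stages in 22 of 80 (27.5%, background 11.2%), and cumulus arrays above mural arrays in 4 (5.00%, background 15.7%). Without unprimed mural replicate 2 these last counts were 22 and 9. A group of 3 and a group of 2 of the close copies described below were among the 24. The counts in this paragraph were not repeated with copies joined, and transcripts with parallel profiles at different levels were also counted singly. The 80 also had wider spreads and larger stimulation differences than most sets, and the shares were not compared by a test.

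**Figure D4:**
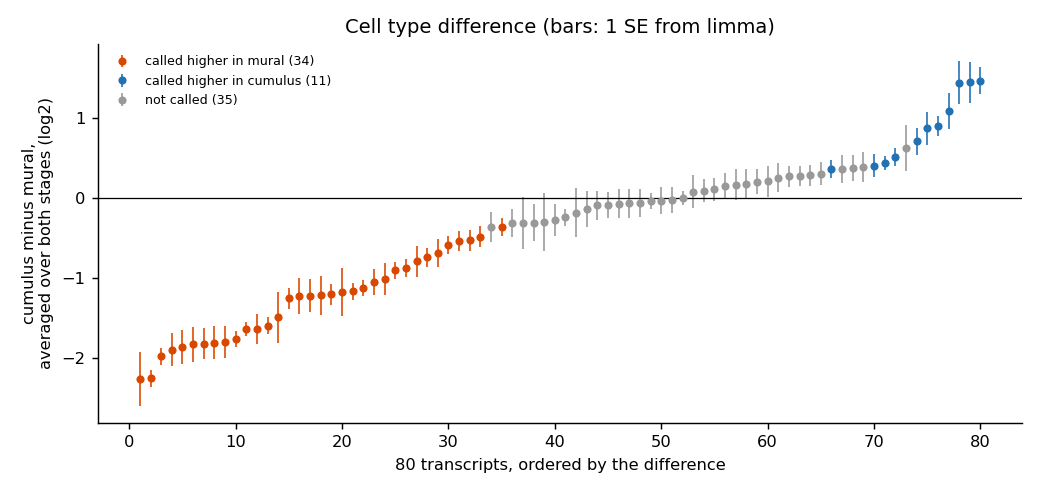
Cumulus minus mural log2 difference averaged over both stages (y axis) for the 80 transcripts in rising order (x axis); points are limma estimates and bars 1 SE. Orange points (34) were called higher in mural, blue points (11) higher in cumulus cells, and grey points (35) were not called; estimates run from -2.26 to 1.47.

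The 34 transcripts higher in mural cells had differences of -2.26 to -0.36 with a median of -1.22, and the 11 higher in cumulus cells had 0.36 to 1.47 with a median of 0.87. Estimates for the 35 not called ran from -0.36 to 0.63. For 32 of these 35 the 95% interval lay between -1 and 1, so a 2-fold difference was outside it, while smaller differences could be missed. Of the 35, 5 had an unadjusted p under 0.05.

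The 2 largest mural excesses differed in their evenness. ENSMUST00000034811 had levels of 8.58, 9.34 and 8.85 in unprimed and 10.80, 10.91 and 11.20 in stimulated cumulus cells. In mural cells they were 10.71, 12.49 and 9.90 and then 13.50, 13.05 and 13.57. Mural arrays stood above cumulus arrays at both stages, by 2.26 ± 0.33 on average (log2, SE; 4.78-fold; limma adjusted p = 0.00016). ENSMUST00000028062 had levels of 6.80, 6.90 and 6.94 in unprimed and 8.86, 8.31 and 8.94 in stimulated cumulus cells. Its mural levels were 9.45, 9.57 and 9.54 and then 10.73, 10.45 and 10.51. Its average excess in mural cells was 2.25 ± 0.10 (4.76-fold; limma adjusted p = 3.07e-08), and its unprimed mural level of 9.52 was above its stimulated cumulus level of 8.70. The second transcript had an SD of 0.06 in unprimed mural cells where the first had 1.33.

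On the cumulus side ENSMUST00000022660, shared with 1 other transcript, had levels of 6.56, 7.69 and 6.91 in unprimed and 8.22, 8.57 and 8.27 in stimulated cumulus cells. In mural cells they were 5.50, 5.83 and 5.78 and then 6.79, 6.42 and 7.09. Cumulus arrays were higher at both stages, by 1.47 ± 0.17 on average (limma adjusted p = 3.49e-05), and since the unprimed mural level lay below the filter level this size is not exact. ENSMUST00000132480 had levels of 10.56, 11.39 and 10.44 in unprimed and 12.38, 12.17 and 12.26 in stimulated cumulus cells. Its mural levels were 9.26, 10.44 and 8.64 and then 10.66, 10.57 and 10.96. Its average excess in cumulus cells was 1.45 ± 0.25 (2.72-fold; limma adjusted p = 0.00055). Unprimed mural replicate 2 touched the range of the unprimed cumulus arrays, whereas the stimulated groups were apart.

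Among the 8 transcripts at least 4-fold higher in both cell types, estimates ran from -2.26 to -0.02. All 8 were below 0 with all arrays and 3 without unprimed mural replicate 2. With all arrays, 2 were called higher in mural cells and 6 were not called. ENSMUST00000099575 was called at -1.22 ± 0.20 (limma adjusted p = 0.00039), and ENSMUST00000038197 was not called at -0.13 ± 0.23 (limma adjusted p = 0.65). Among the 34 transcripts with a smaller difference under 1.2, 13 were called higher in mural and 5 higher in cumulus cells. Over all sets tested, 21.1% were called higher in mural and 28.0% higher in cumulus cells. The counts in these small subsets were not compared with those shares.

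Most transcripts had group means in the same order before and after stimulation. The mural mean was higher at both stages in 45 of 80, the cumulus mean was higher at both in 23, and the direction turned in 12. Without unprimed mural replicate 2 these numbers were 36, 27 and 17. The median cumulus minus mural difference was -0.20 in unprimed and also -0.20 in stimulated cells, against 0.05 and 0.04 over all sets tested, and the unprimed median was 0.13 without that array.

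Array controls moved with stimulation in cumulus cells. The 24 control probe sets for dap, lys, phe and thr, which detect bacterial RNA commonly added to samples before amplification, were all higher in stimulated than unprimed cumulus arrays. Their median log2 difference was 0.92 in cumulus and 0.15 in mural cells. After adjustment for their mean level, the median difference of the 80 transcripts was 0.87 in cumulus and 1.28 in mural cells. The cumulus difference was then above 0 in 67 and at least 1 in 27 of the 80, and the mural difference was at least 1 in 69. Standard errors of the cumulus difference were 2.03 times as large in the median, and the part of the controls in the result cannot be told apart from stimulation.

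The same covariate left 33 of the 80 called higher in mural cells and 1 called higher in cumulus cells. Over all sets tested 8.78% and 6.73% were called in that fit, with standard errors over the 80 of the cell type difference 1.92 times as large. The controls also differed between the cell types. Their array means were 8.43 to 8.79 in stimulated cumulus and 7.57 to 7.75 in stimulated mural cells. In unprimed cells they were 7.59 to 7.80 in cumulus and 7.23 to 7.84 in mural arrays. Their part in these counts cannot be told apart from cell type. ENSMUST00000022660 was still called (1.37, limma adjusted p = 0.031) and ENSMUST00000132480 was not (0.44, adjusted p = 0.53). Both transcripts named for their mural excess were called, at -3.69 for ENSMUST00000034811 and -2.06 for ENSMUST00000028062. When the model was adjusted for the gap between 3′ and 5′ control probe sets of Gapdh and beta-actin, 51 of the 80 had both stimulation differences at 1 or above, and 35 and 11 were called higher in mural and cumulus cells (backgrounds 22.3% and 29.3%).

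Before stimulation the 80 transcripts were not at a common level on arrays of one group. In unprimed mural cells replicate 2 was the highest of the 3 arrays for 71 of 80 transcripts (88.8%), where over all sets tested it was the highest for 42.3%. The median deviation of the 80 from the group mean was 0.43 on replicate 2, -0.17 on replicate 1 and -0.38 on replicate 3, against 0.03, 0.01 and -0.04 over all sets tested. In unprimed cumulus cells replicate 2 was again the highest, for 52 of 80 (65.0%, against 37.4%), with a median deviation of 0.20. Replicate 2 was the highest in both unprimed groups for 48 of 80 (60%), against 18.9% of all sets tested. Whether same-numbered arrays of the 2 cell types came from the same mice is not in the labels.

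After stimulation replicate 2 was the lowest on average in both cell types. It was the highest array for 9 of 80 transcripts in stimulated cumulus cells (11.2%, against 32.8% of all sets tested). In stimulated mural cells it was the highest for 5 (6.25%, against 26.1%). The 65 transcripts that met the mirrored rule, with levels lower by at least 1 after stimulation in both cell types, deviated the other way. Their median deviation was -0.26 on unprimed mural replicate 2 and -0.11 on unprimed cumulus replicate 2. On both kinds of transcript these arrays therefore stood nearer to the stimulated arrays than their group did, and the cause was not tested.

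**Figure D5:**
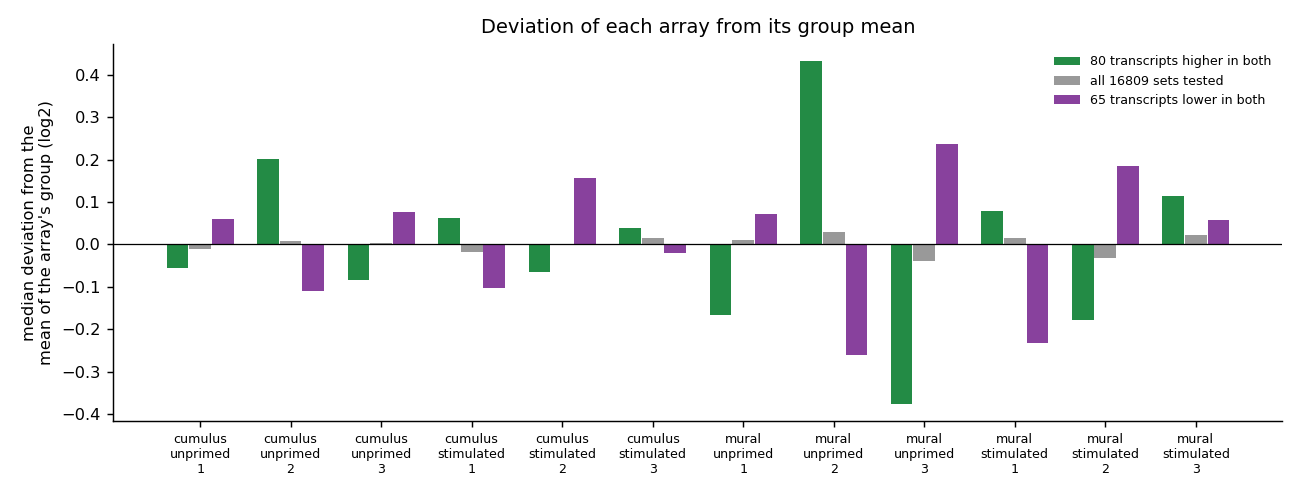
Median log2 deviation of each array from the mean of its group (y axis) for the 12 arrays (x axis); bars show the 80 transcripts higher in both cell types, all sets tested, and the 65 transcripts lower in both. Unprimed mural replicate 2 deviates by 0.43, 0.03 and -0.26 for these, and unprimed cumulus replicate 2 by 0.20, 0.01 and -0.11.

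The unprimed arrays numbered 2 set part of the size of the differences. Against the other unprimed arrays alone, the median stimulation difference of the 80 was 1.56 in mural and 1.48 in cumulus cells, compared with 1.34 and 1.37 with all arrays. Against unprimed replicate 2 alone it was 0.97 in mural and 1.24 in cumulus cells, with 35 and 55 of the 80 at 1 or above. Without unprimed mural replicate 2 the rule chose 95 transcripts, without unprimed mural replicate 3 it chose 65, and without both unprimed arrays numbered 2 it chose 114. Without both, 16 of the original 80 were called higher in cumulus cells (background 25.4%) and 34 higher in mural cells (background 19.1%).

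Some of the 80 were close copies of each other in their values. A limit of 0.25 on all 12 arrays, chosen after the values were seen, joined 10 transcripts into 4 groups of 3, 3, 2 and 2. Counted this way the 80 became 74, of which 29 were called higher in mural and 11 higher in cumulus cells. Over all sets tested, with close copies not joined, these shares were 21.1% and 28.0%. The limit compared the levels themselves, so transcripts with parallel profiles at different levels were not joined. The 74 therefore need not be independent of each other. Identical values with another identifier were found in 24 of the 80 (30.0%), close to the 30.4% of all sets tested, with at most 6 identifiers behind one set.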

How the data were processed

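RNA (20 ng of total RNA per sample) went through repeated rounds of amplification, per the labels' protocols, and this can alter relative levels. The authors deposited log2 values, made with RMA in the affy package per the submitters' processing notes. RMA quantile-normalizes the arrays, so a shift common to most transcripts cannot be seen. No source used here states the versions, array model or probe set definition.

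Of 41115 rows with Ensembl transcript identifiers, those with identical values on all 12 arrays were counted once, leaving 27365 distinct sets. A set was tested where it exceeded the array's 40th percentile (6.66 to 6.73) on at least 3 arrays, which kept 16809. One limma 3.58.1 model (R 4.3.3; lmFit, eBayes) held a mean for each of the 4 groups. The tested contrast was cumulus minus mural, averaged over the unprimed and stimulated stages. It is orthogonal to the differences that chose the transcripts. P-values were adjusted over the 16809 sets by the Benjamini-Hochberg method, with a threshold of 0.05, and "called" means past it. The procedure was tested on simulated data. Figures used matplotlib 3.10.9 in Python 3.11.15.

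The rule and all lists were chosen with earlier results of these data known. The files do not pair identifiers with gene names, and the RefSeq table used holds 0 Ensembl identifiers. The planned gene lists, cell type markers and promoter motifs were therefore not run. At most 2 identifiers per direction are named in each comparison: the largest smaller-of-both stimulation differences, the largest called cell type differences each way, and the largest gaps between the stimulation differences each way. One further identifier was chosen after its values were seen. Alternatives covered normalization, the filter, identical rows, the variance prior, array weights, covariates, a replicate block, and each array left out. At most 0.0631% of values were identical between any 2 arrays.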

Additional observations from a re-analysis of the deposited data

Results flagged for a closer look

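The median log2 difference of the 24 control probe sets for added bacterial RNA (dap, lys, phe, thr) between stimulated and unprimed cumulus arrays was 0.92, with a range of 0.57 to 1.36. It drew attention because these controls are not part of the comparison and stood above their level in the unprimed arrays. Groups of 3 arrays are too small for the check for single outlying arrays, which was not applied.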

How the results depend on the processing

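The number of transcripts chosen by the rule was 80. It was 140 with a limit of 0.8, 18 with a limit of 1.5 and 48 with the bacterial controls as a covariate. The 48 were chosen anew, and 27 of the original 80 had both differences at 1 or above in that fit. The number chosen was 82, 83 and 82 after renewed quantile normalization, median centring and cyclic loess, 90 with array weights and 87 with medians. It was 88 and 63 with a level of 7 and 9, and 65 to 95 with 1 array left out. The array weights of unprimed mural replicates 1 to 3 were 9.28, 0.49 and 0.36. Results with array weights therefore rest mainly on replicate 1 in that group. The number called higher in mural cells (34) was 29 to 35 under all alternatives. The number called higher in cumulus cells (11) was 1 with the bacterial controls as a covariate, 10 to 16 under the others that kept all arrays or left out both unprimed arrays numbered 2, and 10 to 20 with 1 array left out, the highest without unprimed mural replicate 2. With the replicate number as a block the counts were 14 higher in cumulus and 34 higher in mural cells. Same-numbered cumulus and mural arrays correlated in their deviations at 0.08, 0.31 and 0.41 in unprimed and 0.20, 0.15 and -0.13 in stimulated cells. These mixed values do not settle whether the arrays are paired. The labels do not say either, and the numbers were not taken as pairs in the main model. With the covariate of bacterial controls the cumulus stimulation difference was -0.042 for ENSMUST00000132480 and -0.11 for ENSMUST00000034811, and the cell type difference of ENSMUST00000048187, not called, was -0.30. The cell type difference of ENSMUST00000038197, -0.13 and not called, was 0.02 with array weights, 0.03 without unprimed cumulus replicate 1 and 0.07 without unprimed mural replicate 2. The causes were not tested. With 3 arrays per group small differences may be missed, and levels near the filter level give no exact fold.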
